A study of Mus musculus with 6 samples.

Results

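Exonic peaks are stretches of open chromatin that the deposited annotation placed in the exon of a gene, away from its promoter. They were read from the authors' peak table as all peaks with the annotation class Exon on chromosomes 1 to 19, a rule that uses no measured difference. It gave 3550 peaks of the 75134 in the table. Accessibility had been measured by ATAC-seq, in which Tn5 transposase inserts sequencing adapters into open chromatin of isolated nuclei. Nuclei came from frozen quadriceps femoris, a thigh muscle that extends the knee. There were 3 libraries from Prr14-KO mice, called KO4, KO5 and KO7 here, and 3 from Prr14-WT mice, called WT3, WT4 and WT8 after their replicate numbers. Values for a group are given in that order. PRR14 is a protein of the nuclear lamina that tethers heterochromatin to the nuclear edge, and the series title names myofiber identity and the transcription factor MEF2C. The sources used here do not give the age and sex of the mice, the part of Prr14 that was removed, the kind of knockout, or whether each library came from a separate animal. The p-values therefore measure the spread between these libraries, which may be technical in part.

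Exons are the parts of a gene kept in its RNA, and most of their sequence carries protein code. Open chromatin inside an exon can be an enhancer, an internal start site, or a part of a gene body that is opened by heavy transcription. In muscle the longest exon series belong to the giant proteins of the sarcomere, such as titin (Ttn) and nebulin (Neb), which are transcribed at a high level in muscle fibres. An exon deep inside such a gene lies far from its first promoter, but the start site of an inner transcript or a neighbour can be nearer. The median distance to the nearest start site was 16649 bases for tested exonic peaks. It was 17216 bases for all peaks tested and 24182 bases for intronic peaks. ATAC-seq of whole muscle mixes the nuclei of fibres with those of other cells, and fewer nuclei of a type cannot be told apart from less open chromatin per nucleus.

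A small group of exonic peaks held the start site of a gene, and these are the exonic peaks for which promoter sequence can be shown. The RefSeq promoter windows of GRCm38.p6, each running from 250 bases before to 50 bases after a start site, were searched with 1 chromosome left out. Of the windows searched, 36 lay wholly inside 35 exonic peaks, and 8 of the 36 belonged to the gene whose exon was hit. Any such windows on the chromosome left out are missing from these counts and from the calls below. In these 35 peaks, 2 were more accessible and 1 was less accessible in KO. Over all peaks tested, 2.77% were more and 4.23% less accessible, so these few calls stand near those shares. The windows of the 3 called peaks are printed here, 5′ to 3′ on the + strand. Capitals mark the E-box CANNTG, the motif of myogenic helix-loop-helix factors, and CATTCC or its reverse complement, the MCAT motif of TEAD factors. The first is the start of the predicted gene Gm17196 in an exonic peak of Ccdc162 (chr10:41553303-41553602), the second an internal start of Slc20a1, a phosphate transporter (chr2:129206846-129207145), and the third a start of Syn2, a synapsin (chr6:115238744-115239043).
Gm17196: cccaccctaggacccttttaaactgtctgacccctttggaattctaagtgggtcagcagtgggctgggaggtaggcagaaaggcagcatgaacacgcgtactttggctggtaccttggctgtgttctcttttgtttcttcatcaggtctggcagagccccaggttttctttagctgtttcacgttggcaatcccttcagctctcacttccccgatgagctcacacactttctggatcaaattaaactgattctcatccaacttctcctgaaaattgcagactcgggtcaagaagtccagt
Slc20a1: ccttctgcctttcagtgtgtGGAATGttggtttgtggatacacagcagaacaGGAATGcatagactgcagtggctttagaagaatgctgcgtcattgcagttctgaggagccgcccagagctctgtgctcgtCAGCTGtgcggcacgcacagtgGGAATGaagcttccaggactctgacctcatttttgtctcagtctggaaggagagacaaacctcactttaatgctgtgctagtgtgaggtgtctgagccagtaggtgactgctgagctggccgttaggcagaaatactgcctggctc
Syn2: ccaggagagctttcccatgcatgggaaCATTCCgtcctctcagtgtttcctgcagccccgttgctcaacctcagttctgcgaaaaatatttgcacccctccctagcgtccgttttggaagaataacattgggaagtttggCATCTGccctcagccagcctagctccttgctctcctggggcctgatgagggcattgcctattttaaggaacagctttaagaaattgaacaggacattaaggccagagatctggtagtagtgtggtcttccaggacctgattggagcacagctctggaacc
CANNTG stood in 72.3% of all 32851 windows in the table and CATTCC in 14.7%, each on either strand, so an E-box in a window of this length is common. The Slc20a1 window held 3 copies of the MCAT letters and the Syn2 window 1. The Gm17196 window held neither motif, and none of the 3 windows held the MEF2 motif, which 3.19% of all windows held.

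The 3 peaks around these starts differed in how firmly they moved. The Ccdc162 peak stood at 20.9, 27.4 and 23.2 counts per 1000000 (CPM) in WT and at 44.5, 50.2 and 43.2 CPM in KO. The groups did not overlap, and the peak was 1.93-fold higher in KO (log2 fold change 0.95, SE 0.19, adjusted p = 3.58e-05). All adjusted p-values are from edgeR's quasi-likelihood test with Benjamini-Hochberg adjustment over all 73896 peaks tested, and fold changes are KO over WT. The Slc20a1 peak stood at 13.5, 21.9 and 13.2 CPM in WT and at 29.2, 31.2 and 15.5 CPM in KO, so KO7 lay inside the WT range (log2 fold change 0.64, SE 0.20, adjusted p = 0.0253). The Syn2 peak stood at 20.7, 25.8 and 28.7 CPM in WT and at 13.7, 16.2 and 19.7 CPM in KO, without overlap (log2 fold change -0.60, SE 0.20, adjusted p = 0.0420). The Slc20a1 call was lost without WT3, WT8, KO4 or KO5 (adjusted p = 0.186, 0.0745, 0.218 and 0.365). It was also lost with a filter at a mean count of 50 (adjusted p = 0.0798) and with DESeq2 (adjusted p = 0.137). With the factors behind the authors' normalized signal it was lost too (adjusted p = 0.171). The Syn2 call was lost without WT4, WT8, KO4 or KO5 (adjusted p = 0.0954, 0.237, 0.290 and 0.266). It was also lost with total counts (adjusted p = 0.0603), without a filter on low counts (0.0557) and with DESeq2 (0.0701). With the factors behind the authors' normalized signal its adjusted p was 0.666.

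Each library held between 7608514 and 12061822 counts in peaks. The markers of muscle fibres fixed for this check, Ttn, Neb, Acta1, Ckm, Myh4, Myh1 and Ryr1, all had tested peaks. Prr14 itself had 1 tested peak, at its promoter, at 62.3, 66.5 and 57.1 CPM in WT and 51.2, 59.7 and 70.7 CPM in KO. An open promoter does not test the deletion, so the labels could not be checked against Prr14.

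Of the 3550 exonic peaks, 3529 passed the filter on low counts and 21 did not. The tested peaks were 215 to 5223 bases wide with a median of 775, and lay 3155 to 360554 bases from the nearest annotated start site with a median of 16649. Their mean levels ran from 0.987 to 161.5 CPM with a median of 6.62. They fell in exons of 2527 genes, of which 1919 had 1 tested exonic peak and 25 had 5 or more. The deposited gene of a peak is the one with the nearest start site, which is often a neighbour or an inner transcript. The gene whose exon was hit was therefore taken from the transcript in the annotation, and it differed from the deposited gene for 997 of the 3550 peaks. Several exonic peaks of Ttn, for example, carry the name of its neighbour Plekha3 in the deposited table.

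In KO, 135 exonic peaks were higher and 182 were lower, 317 in all. Over all peaks tested, 7.01% were called, 2.77% higher and 4.23% lower. Among exonic peaks the shares were 3.83% and 5.16%, among intronic peaks 3.15% and 5.09%, among intergenic peaks 3.08% and 4.86%, and among promoter peaks 1.6% and 1.48%. The exonic class thus stood near the intronic and intergenic classes. The median log2 fold change was -0.06 over exonic peaks and -0.01 over all peaks. The exonic peaks that rose did so by a median log2 fold change of 0.90, from 0.55 to 4.76, and 43 of them by 2-fold or more. Those that fell did so by a median of -0.89, from -0.54 to -2.65, and 71 of them by 2-fold or more. The groups did not overlap in 349 exonic peaks in the direction of higher KO levels and in 449 in the direction of lower KO levels, against 9.17% and 11.2% of all peaks tested.

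The balance between rises and falls depended on how libraries were scaled and on single libraries. The factors behind the authors' normalized signal ran from 0.977 to 1.035, while the libraries held 7608514 to 12061822 counts in peaks. These factors therefore scaled little for depth. With them in the same test, 100 exonic peaks were higher and 31 lower, and the median over all peaks moved from -0.01 to 0.19. The exonic median moved with it to 0.14, so its distance from the median of all peaks hardly changed. In the authors' deposited table, 101 exonic peaks were higher and 28 lower at an adjusted p under 0.05, against 2.44% and 0.872% of all peaks with an adjusted p there. Rises made up 42.6% of the exonic calls here, 46.2% with median-ratio factors, 52.6% with total counts and 76.3% with the authors' factors. Rises fell to 85 without WT3, 75 without KO4 and 63 without KO5. Falls dropped to 81 without WT4, 121 without KO4, 83 without KO5 and 111 without KO7. The balance turned with the library left out as well, to 165 rises against 81 falls without WT4 (67.1% rises) and 145 against 111 without KO7 (56.6% rises).

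Measures that do not depend on scaling between libraries showed no separation of the groups for the class as a whole. Exonic peaks took 3.71%, 4.06% and 3.59% of all reads in peaks in WT and 3.90%, 3.88% and 3.54% in KO (exact permutation p = 1.0, two-sided, smallest possible 0.1). The mean log2 CPM of exonic peaks lay 0.35, 0.39 and 0.34 above that of intronic peaks in WT and 0.38, 0.36 and 0.33 above it in KO (exact permutation p = 0.8). Against promoter peaks, exonic peaks lay at -1.19, -1.01 and -1.02 in WT and at -1.02, -1.15 and -1.32 in KO (exact permutation p = 0.5).

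Exonic peaks far from any start site held the largest share of falls of the 3 distance ranges. Of the 436 exonic peaks over 50 kb from the nearest start site, 12 were higher and 52 were lower, which is 2.75% and 11.9%. Under 10 kb, 36 of 1057 were higher and 41 lower, and from 10 to 50 kb 87 of 2036 were higher and 89 lower. Intronic peaks over 50 kb away were lower in 6.46% and intergenic peaks at that distance in 5.92%. The 52 falling peaks lay in 39 genes, led by Myom1 and Ttn with 4 peaks each and Rictor with 3. As a contrast within each library, the mean log2 CPM of exonic peaks over 50 kb minus that of exonic peaks under 10 kb was -0.13, -0.10 and -0.13 in WT and -0.25, -0.29 and -0.26 in KO. The groups did not overlap on this measure, which was added after the counts were seen (difference -0.15, exact permutation p = 0.1, the smallest possible). The same contrast in intronic peaks was -0.24, -0.36 and -0.24 in WT and -0.38, -0.43 and -0.36 in KO, where KO7 lay inside the WT range (difference -0.11, exact permutation p = 0.2). Whether exonic peaks over 50 kb moved apart from intronic peaks at that distance was tested within libraries too, with a difference of -0.07 (exact permutation p = 0.2). The count of 52 fell to 18 without WT4, 30 without KO4, 21 without KO5, 27 without KO7 and 9 with the authors' factors.

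The share of exonic peaks called was lowest in the narrowest peaks. Among those under 500 bases, 8 of 1051 were higher and 17 lower. From 500 to under 1000 bases 50 of 1230 were higher and 56 lower, from 1000 to under 2000 bases 68 of 1021 were higher and 84 lower, and at 2000 bases or more 9 of 227 were higher and 25 lower. Wide peaks hold more reads, and intronic peaks of 2000 bases or more were lower in 13.1%, near the 11% of wide exonic peaks. The 3 widest exonic peaks were not called with all libraries and the main filter on low counts. A Ttn peak of 5223 bases stood at 97.4, 134 and 83.5 CPM in WT and 80.4, 82.6 and 70.1 CPM in KO, where all KO libraries lay under the lowest WT library (log2 fold change -0.43, SE 0.17, adjusted p = 0.124). It was called without WT8 (adjusted p = 0.0177) and with a filter at a mean count of 50 (adjusted p = 0.0348), as was the Ttn peak of 4534 bases (adjusted p = 0.0305 and 0.0391). A peak of 4603 bases in Tns1, which encodes the focal adhesion protein tensin, stood at 106, 116 and 106 CPM in WT and 128, 127 and 121 CPM in KO (log2 fold change 0.20, SE 0.17, adjusted p = 0.655).

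**Figure D1:**
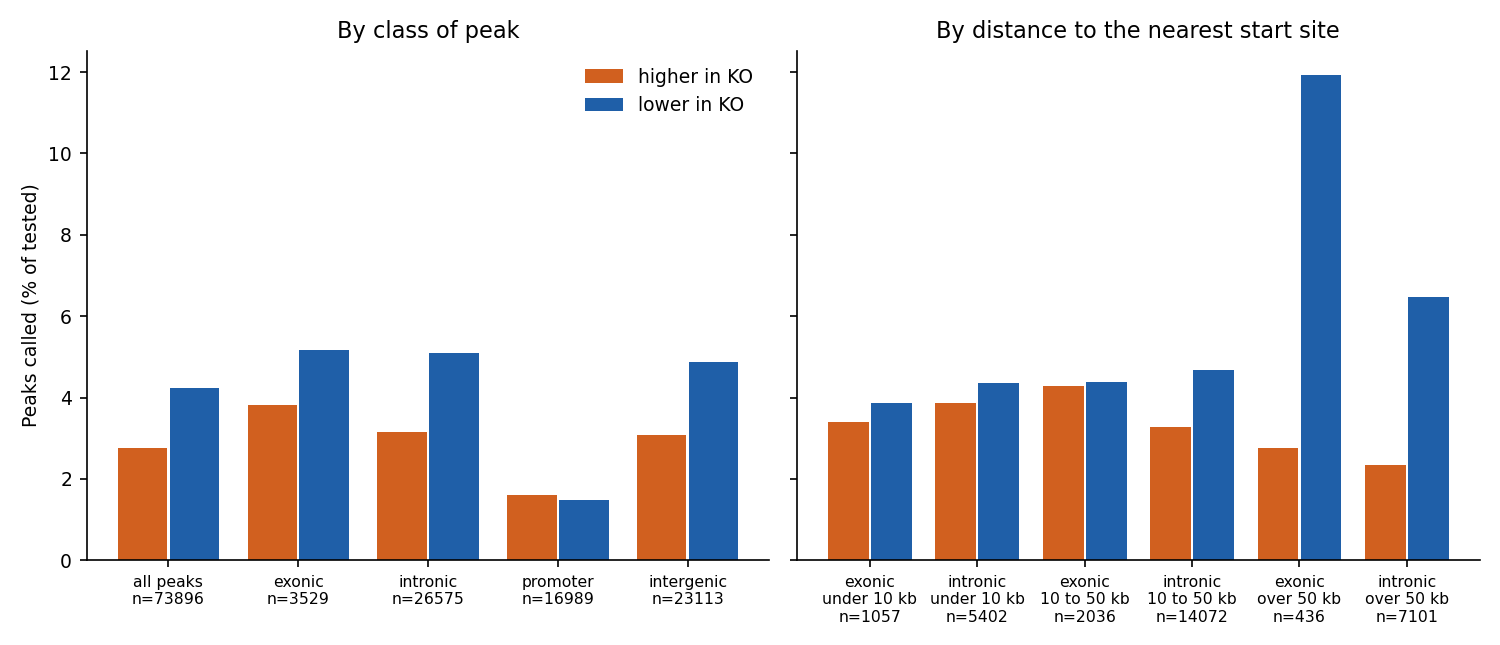
Share of tested peaks called higher (orange) or lower (blue) in KO at an adjusted p under 0.05, in percent, by class of peak on the left and by distance to the nearest start site for exonic and intronic peaks on the right; n is the number of peaks tested. The bar for exonic peaks over 50 kb reaches 11.9% lower, while the exonic class as a whole stands at 5.16%.

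The exonic peak with the smallest p-value of all peaks tested lay in Esr1, the gene of estrogen receptor alpha. It is 270 bases wide (chr10:4856925-4857194, GRCm38) and lies 146905 bases from the nearest start site. It held 8, 17 and 9 reads in WT and 402, 187 and 457 reads in KO. In CPM these are 0.823, 1.56 and 1.18 in WT and 42.0, 15.4 and 41.8 in KO. Every KO library stood far above every WT library, with KO5 at less than the other KO libraries. The peak was 27.2-fold higher in KO (log2 fold change 4.76, SE 0.27, adjusted p = 2.45e-62).

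A further narrow peak at the far end of Esr1 went with it. It is 245 bases wide (chr10:5001186-5001430), is annotated to a 3' UTR and carries the name of the neighbour Syne1 in the deposited table. It held 17, 11 and 14 reads in WT and 331, 183 and 501 reads in KO, and was 21.0-fold higher (log2 fold change 4.39, SE 0.27, adjusted p = 3.57e-56). Among all 73896 peaks tested, these 2 were the ones with a log2 fold change of 3 or more. The other 27 tested peaks inside Esr1, which are intronic or at promoters, did not rise. Of these, 0 were higher and 2 were lower, and their log2 fold changes ran from -1.11 to 0.62 with a median of -0.39. As background, the ligand-binding part of the estrogen receptor is a common building block of drug-inducible Cre recombinases. The sources used here do not say whether the KO mice carried such a construct, and where the reads in these peaks came from was not tested.

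**Figure D2:**
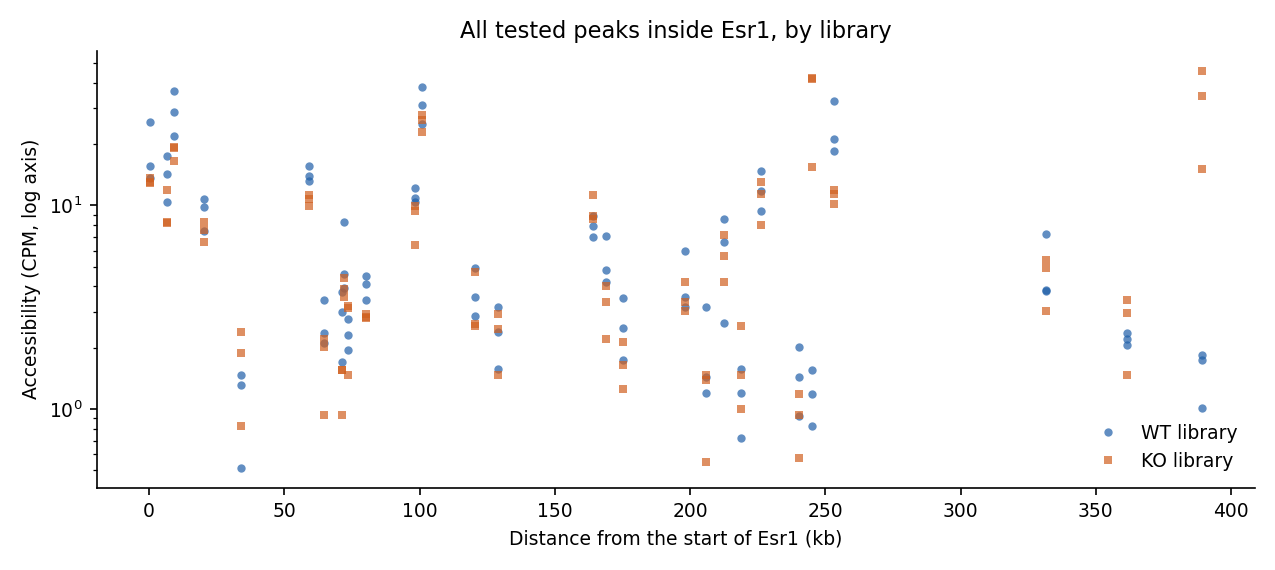
Accessibility of the tested peaks inside Esr1 in each library (CPM on a log axis) against distance from the start of the gene in kb, with WT libraries as blue circles and KO libraries as orange squares. At the exonic peak of 270 bases and at the peak of 245 bases near the end of the gene, the KO libraries lie above 15 CPM and the WT libraries under 2 CPM, while at the other 27 peaks no rise was called and 2 were lower in KO.

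After Esr1, the higher exonic peaks with the smallest p-values lay in genes of unlike function, among them genes of mitochondria, lysosomes and DNA repair. Samm50 encodes a subunit of the sorting and assembly machinery of the outer mitochondrial membrane. Its exonic peak (chr15:84196399-84197664) stood at 8.23, 12 and 10.9 CPM in WT and at 42.7, 29.1 and 28.2 CPM in KO. The lowest KO library was above the highest WT library, and the peak was 3.20-fold higher (log2 fold change 1.68, SE 0.21, adjusted p = 4.39e-13). The peak in Prxl2c, which encodes a peroxiredoxin-like protein, stood at 6.48, 7.64 and 8.16 CPM in WT and at 23.0, 28.4 and 18.3 CPM in KO, again without overlap (3.14-fold, adjusted p = 4.64e-11). Both genes had promoter peaks that did not pass, with log2 fold changes of 0.29 for Samm50 and -0.01 for Prxl2c.

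Plbd2, which encodes a lysosomal protein of the phospholipase B family, had 2 tested exonic peaks and both rose. The first (chr5:120494067-120496055) stood at 13.3, 15.5 and 21.9 CPM in WT and at 48.9, 48.5 and 35.7 CPM in KO. The other, which the deposited table lists under Sds, stood at 6.17, 9.02 and 9.48 CPM in WT and 24.6, 26.6 and 18.2 CPM in KO. The groups were apart in each, and the log2 fold changes were 1.40 (SE 0.19, adjusted p = 2.25e-10) and 1.49 (SE 0.22, adjusted p = 2.19e-09). The Plbd2 promoter peak rose as well, by 0.78 on the log2 scale (adjusted p = 0.00321). The peak in Ap3m2, a medium subunit of the AP-3 sorting complex, was low in WT at 1.44, 2.12 and 3.03 CPM and stood at 7.74, 13.2 and 4.85 CPM in KO (3.98-fold, SE of the log2 fold change 0.31, adjusted p = 3.24e-08).

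The other higher exonic peaks named by rank lay in Mpp3, Sipa1l2, Rad51b, Chid1, Trrap, Gpr155 and Sctr, each with a log2 fold change between 1.06 and 1.5. Trrap, the scaffold subunit of histone acetyltransferase complexes, stood at 2.68, 3.77 and 4.61 CPM in WT and at 11.9, 12.2 and 6.96 CPM in KO. Rad51b, a gene of homologous recombination, held the exonic peak farthest from a start site, at 360554 bases. That peak stood at 5.97, 9.48 and 6.58 CPM in WT and at 16.2, 22.4 and 14.5 CPM in KO (2.40-fold, adjusted p = 2.98e-06). The other peaks at such distances, in Lrp1b at 318235 bases and in Zfpm2 at 344477 bases, had mean levels of a few CPM in each group and did not pass.

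The lower exonic peak with the smallest p-value lay in Asb5, a substrate adaptor of ubiquitin ligases expressed in muscle. The peak (chr8:54580363-54582020), which the deposited table lists under Spata4, stood at 29.8, 38.8 and 26.6 CPM in WT and at 10.1, 6.25 and 5.68 CPM in KO. The highest KO library was far below the lowest WT library, and the peak was 4.36-fold lower (log2 fold change -2.12, SE 0.21, adjusted p = 9.66e-20). The Asb5 promoter peak fell by nearly as much, with a log2 fold change of -1.98 (adjusted p = 2.14e-15). In Arhgap26, which encodes a GTPase-activating protein, the exonic peak stood at 42.6, 57.6 and 31.3 CPM in WT and at 13.4, 8.88 and 11.7 CPM in KO (3.90-fold lower, adjusted p = 3.07e-19). Its promoter peak did not move with it, at a log2 fold change of 0.10.

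Edar, the receptor for ectodysplasin, had an exonic peak at 27.9, 39.7 and 30.8 CPM in WT and at 9.31, 9.45 and 9.61 CPM in KO (3.47-fold lower, adjusted p = 7.52e-15). The peak in Oat, the mitochondrial enzyme ornithine aminotransferase, stood at 53.8, 73.2 and 42.8 CPM in WT and at 19.7, 21.5 and 17.4 CPM in KO (2.91-fold lower, adjusted p = 4.01e-13). In these genes, too, the groups were well apart. Traf3ip2, an adaptor of interleukin-17 receptors, fell 2.76-fold. The peak with the lowest level among the falling ones named by rank, in the phospholipid flippase gene Atp8a2, had the largest fall of the called exonic peaks, from 6.89, 9.48 and 5.66 CPM to 1.46, 1.15 and 0.915 CPM, 6.27-fold lower (adjusted p = 1.65e-10). Ppp3cb, a catalytic subunit of calcineurin, had an exonic peak listed under Mss51 in the deposited table at 15.2, 21.8 and 16.8 CPM in WT and 5.33, 5.59 and 5.86 CPM in KO (3.21-fold lower, adjusted p = 2.45e-10). Its own promoter peak did not pass (log2 fold change 0.09). Cdc14a, a phosphatase, and Usp25, a deubiquitinase, were lower too, at -1.31 and -1.36 on the log2 scale, and Mylk4, Myh1 and Myh4, described with their gene groups, made up the rest of the 12.

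Of the 24 peaks named by rank, 12 in each direction, the groups did not overlap in any. This is no further support, because the peaks were chosen by p-value in the same libraries. Among all called exonic peaks, the groups did not overlap in 127 of 135 rises and 169 of 182 falls. The calls of the 24 held under 13 alternatives of scaling, test, filter and left-out library, all refits of the same counts. The exception was the Myh4 peak under the authors' factors (log2 fold change -0.99, adjusted p = 0.0675).

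**Figure D3:**
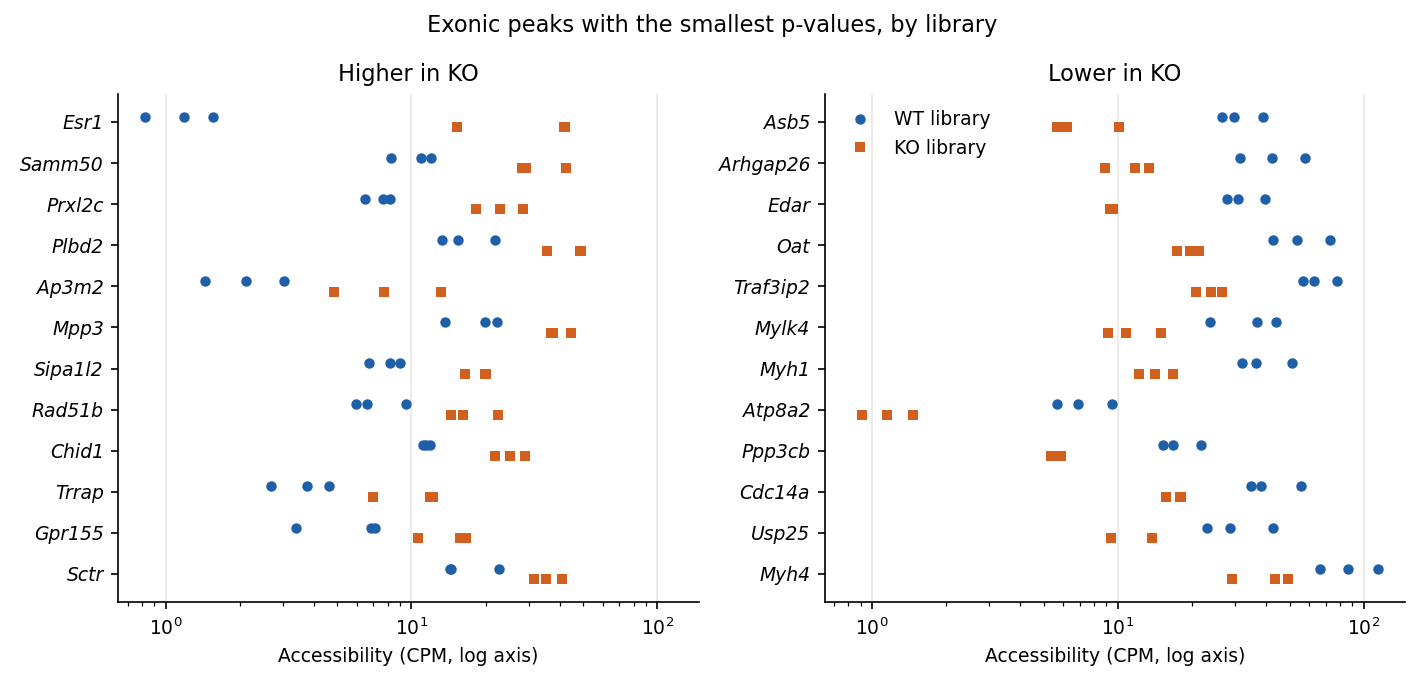
Accessibility in each library (CPM on a log axis) of the 12 exonic peaks with the smallest p-values that were higher in KO (left) and the 12 that were lower (right), 1 peak per gene, with WT libraries as blue circles and KO libraries as orange squares. In every row the symbols of the groups are apart, and Esr1 has the widest gap.

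Myosin heavy chains are the motor proteins that define fibre types, and their called exonic peaks lay in the genes of 2 fast chains. Of 9 exonic peaks in 6 myosin heavy chain genes, 0 were higher and 4 were lower, beside 2.77% and 4.23% of all peaks tested. The median log2 fold change of the 9 was -0.57. The 4 peaks were both of those in Myh4, the type IIb chain, and both in Myh1, the type IIx chain. The stronger Myh4 peak (chr11:67253766-67257273) stood at 86.6, 115 and 66.7 CPM in WT and at 49.0, 43.7 and 29.2 CPM in KO, the lowest WT library above the highest KO library (log2 fold change -1.14, SE 0.18, adjusted p = 5.39e-08). The other stood at 52.6, 57.1 and 33.2 CPM in WT and at 28.1, 24.3 and 12.2 CPM in KO (-1.15, SE 0.19, adjusted p = 2.08e-07). The Myh4 promoter peak fell alike, by a log2 fold change of -1.08 (adjusted p = 3.95e-07). The stronger Myh1 peak (chr11:67203894-67205691) stood at 36.5, 51.1 and 32.0 CPM in WT and at 14.2, 12.2 and 16.8 CPM in KO (-1.47, SE 0.20, adjusted p = 4.34e-11). The weaker Myh1 peak, 390 bases wide, stood at 2.26, 6.07 and 3.42 CPM in WT and at 1.88, 1.15 and 1.19 CPM in KO (-1.49, SE 0.45, adjusted p = 0.0163). The 4 calls became 1 with the authors' factors and 3 without WT4, KO5 or KO7.

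Of the 12 exonic peaks in genes of fast fibres, 0 were higher and 2 were lower, beside 2.77% and 4.23% of all peaks tested. The median of the 12 was -0.34, and 4 were lower without WT8. The 2 were in Mylk4, a myosin light chain kinase, and Actn3, the alpha-actinin of fast fibres. The Mylk4 peak (chr13:32720392-32722319) stood at 36.7, 44.1 and 23.8 CPM in WT and at 15.1, 9.12 and 10.8 CPM in KO, without overlap (3.02-fold lower, adjusted p = 2.9e-12). All 9 other tested peaks within 20 kb of it fell too. The Actn3 peak stood at 34.3, 41.2 and 23.7 CPM in WT and at 20.1, 23.9 and 17.9 CPM in KO, so KO5 reached the lowest WT library (log2 fold change -0.68, SE 0.19, adjusted p = 0.00878). That call was lost with the authors' factors and without WT3, WT4, KO4 or KO7, where its log2 fold change lay between -0.46 and -0.66. Genes of slow fibres had 1 tested exonic peak, in Mybpc1, a slow myosin-binding protein. It stood at 2.78, 3.22 and 4.87 CPM in WT and at 2.61, 1.56 and 1.19 CPM in KO, without overlap, and its log2 fold change of -1.01 had an unadjusted p under 0.05 but did not pass (SE 0.44, adjusted p = 0.172).

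The giant filament and M-band genes held 118 tested exonic peaks in 7 genes, and 1 peak was higher and 22 were lower. Over all peaks tested, 2.77% were higher and 4.23% lower, and the counts of single genes below stand beside the same shares. The median log2 fold change of the 118 was -0.39. Titin spans half-sarcomeres as a molecular spring, nebulin runs along the thin filament, and the myomesins crosslink thick filaments in the M-band. The 22 falls became 2 without WT4, 2 without KO5, 5 without KO7, 13 without KO4, 9 with DESeq2 and 0 with the authors' factors, and 32 without WT8. WT4 was the highest of the 6 libraries in the summed exonic level of Ttn, Neb, Ryr1, Syne1, Pde4dip, Myom1, Myom2, Myh4 and Myh1, and its part in these falls is given by the values without it.

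Ttn had the most exonic peaks of any gene, 53 over a span of 278.6 kb. Their summed level was 1340, 1811 and 1197 CPM in WT and 1186, 1187 and 995 CPM in KO. The groups were narrowly apart, with the lowest WT library just above the highest KO library (exact permutation p = 0.1, the smallest possible). Of the 53 peaks 7 were lower and 0 higher, with log2 fold changes from -0.82 to 0.03 and a median of -0.43. The call with the smallest p-value stood at 24, 30.4 and 19.1 CPM in WT and at 17.3, 16.2 and 11.2 CPM in KO (log2 fold change -0.73, SE 0.20, adjusted p = 0.00782). The intronic and promoter peaks assigned to Ttn had medians of -0.44 and -0.43, so the exonic peaks did not stand apart from the rest of the gene. The 7 calls became 0 without WT4, KO5 or KO7, 2 without KO4, 11 without WT8, 14 with a filter at a mean count of 50, 1 with DESeq2 and 0 with the authors' factors, and the median stayed below 0 in each of these, at -0.19 without WT4.

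Neb had 24 exonic peaks over 241.8 kb, of which 10 were lower and 0 higher, with a median of -0.62. Their summed level was 357, 478 and 297 CPM in WT and 304, 265 and 218 CPM in KO, so KO4 overlapped WT8 (exact permutation p = 0.2). The intronic peaks of Neb had a median of -0.69 and its promoter peaks one of -0.59. The 10 calls became 0 without WT4 or KO5, 3 without KO7, 6 without KO4, 4 with DESeq2 and 0 with the authors' factors.

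The other long muscle genes differed in their number of calls, and differences between genes were not tested. Ryr1, the calcium release channel of the triad, had 18 exonic peaks and 0 calls by edgeR or DESeq2 with the main filter on low counts. Of these peaks 4 had an unadjusted p under 0.05, and the median was -0.27. By edgeR 2 were lower without WT8, and 2 were lower with a filter at a mean count of 50. All 18 log2 fold changes were below 0, from -0.58 to -0.04. In Myom1, 4 of 8 exonic peaks were lower and 0 higher, and their summed level was 118, 176 and 115 CPM in WT and 99.5, 81.5 and 79.4 CPM in KO. In Myom2, 0 of 7 were called by edgeR or DESeq2 and 0 had an unadjusted p under 0.05, and the summed levels of 122, 179 and 112 CPM in WT and 123, 140 and 112 CPM in KO overlapped. The Myom1 calls became 1 without WT4, 2 without KO5 or KO7 and 0 with the authors' factors. In Myom3, a further myomesin, 1 of 2 exonic peaks rose, and the other, at 15.4, 20.9 and 15.1 CPM in WT and 17.3, 18.4 and 15.9 CPM in KO, did not pass (adjusted p = 0.999). The rising peak stood at 4.42, 5.43 and 3.95 CPM in WT and at 11, 11.4 and 7.96 CPM in KO (2.18-fold higher, adjusted p = 0.00075).

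**Figure D4:**
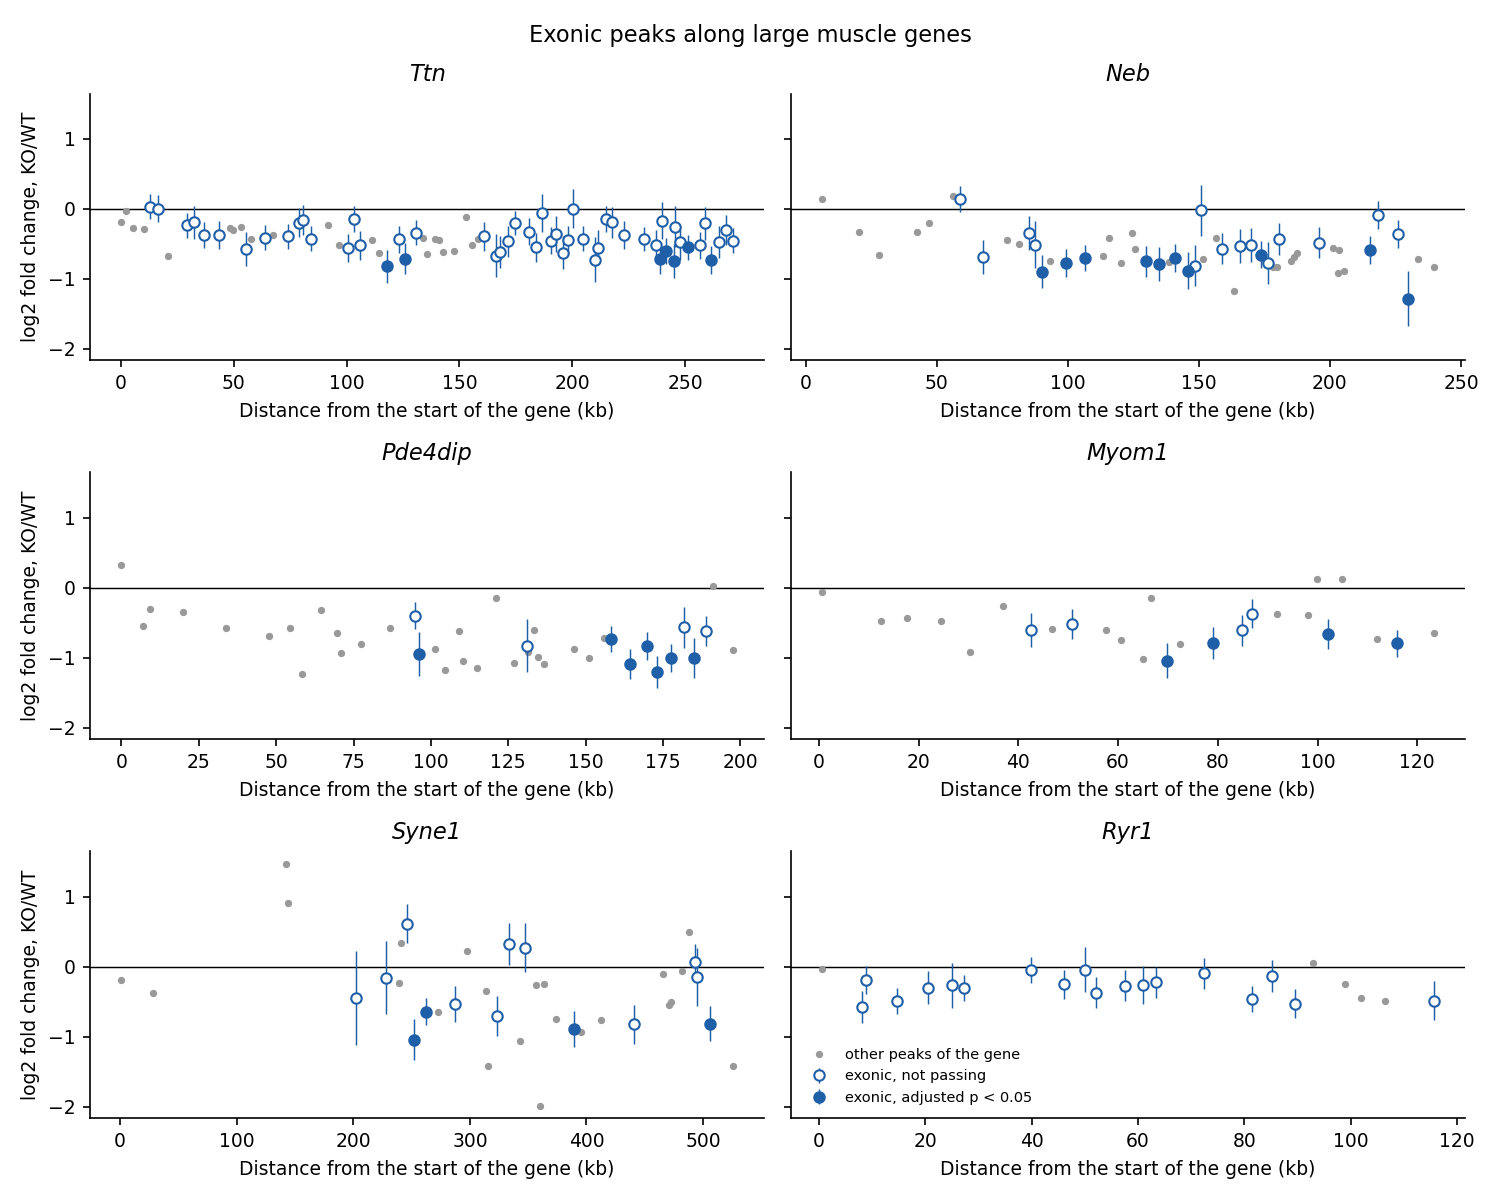
Log2 fold change of KO over WT at each tested peak against the distance from the start of the gene in kb, for 6 long muscle genes. Blue circles are exonic peaks with their SE, filled where the adjusted p is under 0.05, and grey dots are other peaks of the gene. Most exonic peaks of Ttn, Neb, Pde4dip and Myom1 lie below 0 along the whole gene, and so do all 18 of Ryr1, none of which passed.

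Pde4dip, singled out after its values were seen, had the highest share of falling exonic peaks among genes with more than 3 of them. It encodes myomegalin, a protein of the centrosome and Golgi that is also found at the Z-disc. Of 11 exonic peaks 7 were lower and 0 higher, with a median of -0.83. The peak with the smallest p-value (chr3:97715296-97716140) stood at 14.9, 20.2 and 12 CPM in WT and at 9.93, 5.18 and 5.68 CPM in KO (log2 fold change -1.20, SE 0.23, adjusted p = 1.8e-05). Their summed level was 182, 251 and 176 CPM in WT and 128, 123 and 103 CPM in KO, with the groups apart. Peaks of Pde4dip outside exons fell alike, with 10 of 19 intronic peaks lower (median -0.72) and 5 of 6 peaks in the 3' UTR class (median -0.90), while its 4 promoter peaks had a median of -0.23 and 0 calls. With a library left out, 4 to 6 of the 11 peaks were called, and 1 was with the authors' factors.

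**Figure D5:**
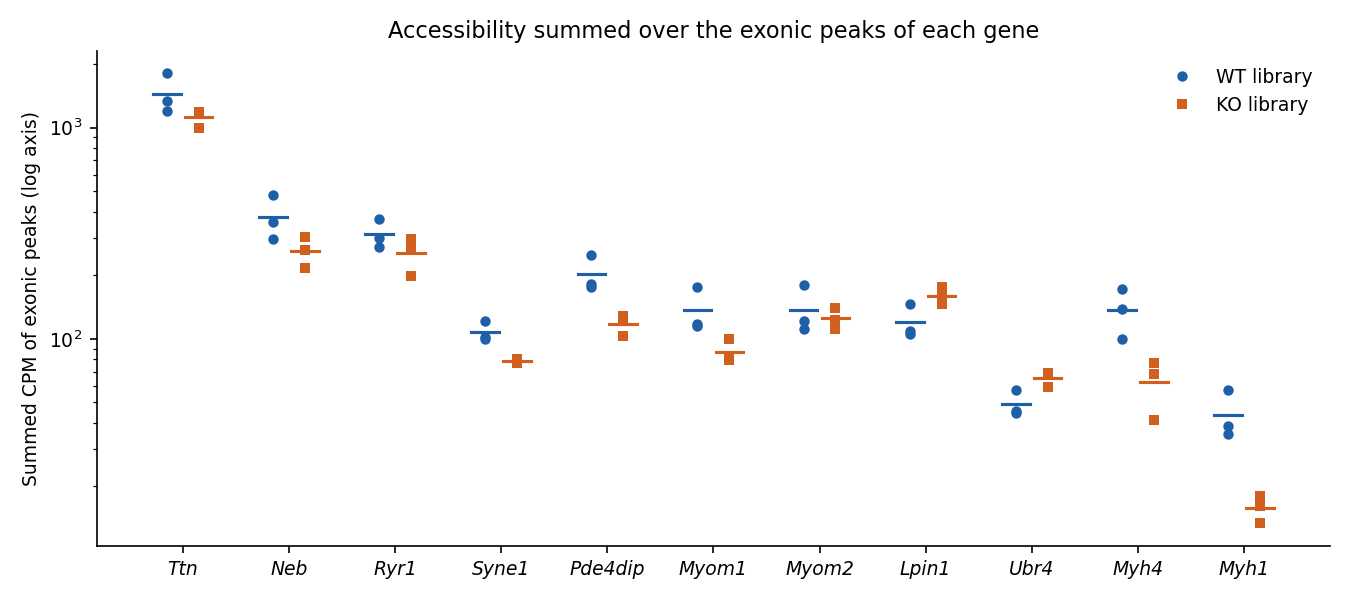
Sum of CPM over all exonic peaks of a gene in each library (log axis), with WT libraries as blue circles, KO libraries as orange squares and horizontal lines at the mean of 3 libraries. Myh1 shows the clearest gap between the groups, from 35.4 to 57.1 CPM in WT against 13.4 to 17.9 CPM in KO, while Myom2 overlaps.

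Genes of the nuclear envelope and of heterochromatin, the place where PRR14 works, had 27 exonic peaks, of which 0 were higher and 4 were lower, beside 2.77% and 4.23% of all peaks tested. All 4 lay in Syne1, the gene of nesprin-1, which links the nucleus to the cytoskeleton. Of the 20 intronic peaks of Syne1, 1 was higher and 5 were lower. Syne1 had 14 exonic peaks with a summed level of 102, 122 and 100 CPM in WT and 79.98, 76.6 and 80.01 CPM in KO, without overlap. One of them (chr10:5288281-5289959) stood at 30.7, 35.6 and 30.5 CPM in WT and at 19.9, 21.6 and 20.6 CPM in KO (log2 fold change -0.64, SE 0.19, adjusted p = 0.0166). The 4 calls became 0 without WT4 or KO5 and with the authors' factors, and 2 without WT3 or KO7.

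Other muscle lists held few calls, to be read beside the 2.77% of all peaks that were higher and the 4.23% that were lower, and a call or so in a list of this size is near those shares. Of 33 exonic peaks in Z-disc and scaffold genes, 1 was lower, in the formin Fhod3 (20.2, 26.5 and 17.9 CPM in WT, 11.1, 10.8 and 11.2 CPM in KO, adjusted p = 0.000217). The Fhod3 call was lost with the authors' factors (adjusted p = 0.172). Of 35 in calcium handling genes, 0 were higher and 2 were lower, both in Jph1, the junctophilin that holds the triad together, and the Jph1 calls became 1 without WT3, WT4 or WT8 and with DESeq2, and 0 without KO5 or KO7 and with the authors' factors. Of 12 in dystrophin complex genes, 1 in Utrn was higher and 1 in Sntb1 was lower, at adjusted p-values of 0.0307 and 0.0283. The Utrn call was lost in each fit without WT3, WT4, KO4 or KO5, and the Sntb1 call without WT3, WT4, KO5 or KO7. Both were lost with DESeq2. The Sntb1 call was also lost with the authors' factors, total counts or a filter at a mean count of 50. Of 3 exonic peaks in MEF2 and class IIa deacetylase genes, 6 in genes of the neuromuscular junction and 16 in genes of atrophy and growth signalling, edgeR called 0. At an unadjusted p under 0.05 there were 1, 1 and 3, and DESeq2 called 0 in each list.

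Of 9 exonic peaks in genes of myogenic and fibre-type regulators, 1 was lower, in Tbx15, a T-box factor of glycolytic fibres (19.96, 31.3 and 19.5 CPM in WT, 13.1, 14.6 and 13.6 CPM in KO, adjusted p = 0.00386). The Tbx15 call was lost without WT4 (log2 fold change -0.49) and with the authors' factors (-0.60). In homeobox genes 1 of 6 was lower, in Zfhx4, and that call was lost without WT3, WT4, KO4, KO5 or KO7. It was also lost with DESeq2 and with the authors' factors. In collagen genes 2 of 25 were lower, in Col6a3 and Col27a1, again near the 4.23% of all peaks, and the Col6a3 call was lost without WT4 (adjusted p = 0.094). Without KO4 or KO5, or with the authors' factors, none of the 25 was called, and 1 was without WT3, WT8 or KO7.

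Markers of other cell types had few exonic peaks. Those of endothelial cells and of smooth muscle and pericytes had 6 each and 0 calls by edgeR or DESeq2 (2 and 1 at an unadjusted p under 0.05), with summed levels of 24 to 27.8 CPM in WT and 27.8 to 30.2 CPM in KO for endothelial cells and of 52.8 to 60.6 CPM and 52.5 to 56.9 CPM for smooth muscle. The marker lists of macrophages and of adipocytes had 1 exonic peak each and that of Schwann cells and neurons had 2, with 0 calls by edgeR or DESeq2 and 0 at an unadjusted p under 0.05. The 1 exonic peak of the list for fibro-adipogenic cells and tenocytes, in Thbs4, a matrix protein of tendon, rose from 8.44, 8.47 and 7.24 CPM to 14.6, 14.5 and 13.9 CPM (1.77-fold, adjusted p = 0.0075). The part of other cell types in the results above was not tested.

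Of the 271 genes with a called exonic peak, 22 had 2 or more such peaks. In 6 of them 2 or more peaks rose and in 15 of them 2 or more fell, while Mtr, which encodes methionine synthase, had 1 of each. All 3 exonic peaks of Slc41a3, a magnesium transporter, rose, by 0.73 to 0.93 on the log2 scale. The strongest in level (chr6:90624392-90625800) stood at 41.8, 43.2 and 48.8 CPM in WT and at 77.3, 90.8 and 53.6 CPM in KO, without overlap, and the Slc41a3 promoter rose by 1.13. In the other Slc41a3 peaks KO7 lay within the WT range, at 12 CPM against 11.9 to 14.6 CPM and at 12.5 CPM against 6.44 to 13.2 CPM, and with DESeq2 the first of these did not pass (adjusted p = 0.283). The calls of all 3 were lost without KO5, which was the highest KO library in each, and that of 1 without WT4 (adjusted p = 0.0544). With the authors' factors the peak strongest in level lost its call (adjusted p = 0.0866). All 3 exonic peaks of Rictor, a core subunit of the kinase complex mTORC2, fell. The one with the smallest p-value (chr15:6791752-6792471), listed under Osmr in the deposited table, stood at 11.3, 14.5 and 10.8 CPM in WT and at 5.33, 4.03 and 3.11 CPM in KO (2.96-fold lower, adjusted p = 2.25e-07), and the Rictor promoter had a log2 fold change of -0.06. Without WT4, the calls of the other Rictor peaks were lost (adjusted p = 0.0864 and 0.0526), and without KO4 that of 1 of them (adjusted p = 0.0789). The same 2 calls were lost with the authors' factors (adjusted p = 0.211 and 0.122).

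Some genes with a known role in muscle metabolism were also among the called ones and were picked after their values were seen. Lpin1, the phosphatidate phosphatase lipin-1, had 2 rising peaks of 5, the stronger at 28.7, 41.5 and 31.6 CPM in WT and 50.7, 51.5 and 47.5 CPM in KO (log2 fold change 0.55, SE 0.18, adjusted p = 0.0374). Both Lpin1 calls were lost without WT3, KO4 or KO5 and with the authors' factors. Ubr4, a ubiquitin ligase, had 1 rising peak of 7, at 3.81, 8.74 and 6.32 CPM in WT and 14.6, 14.8 and 11.6 CPM in KO (2.16-fold, adjusted p = 0.000177), and this count was the same under every alternative run. A peak of 4086 bases in Mlxip, the gene of the glucose-sensing factor MondoA, stood at 71.8, 82.8 and 65.8 CPM in WT and at 39.8, 41.2 and 42.6 CPM in KO, well apart (log2 fold change -0.84, SE 0.18, adjusted p = 0.000192), and lost its call with the authors' factors.

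Few genes with an exonic call also had a promoter call, but the share was above that of genes without an exonic call. For each gene 1 promoter peak was read, the one nearest to a start site, and its other promoter peaks were not counted. Of the 112 genes with a rising exonic peak and a tested promoter peak, 4 had such a promoter peak that rose and 0 one that fell. The 4 were Lpin1, Plbd2, Sh3bp5 and Slc41a3. Of the 129 genes with a falling exonic peak and a promoter peak, 10 had such a promoter peak that fell and 0 one that rose. Among them were Asb5, Asb15, Myh4, Car3 and Ppp1r3a. Among 1912 genes with a promoter peak and no called exonic peak, 18 promoters rose and 17 fell, which is 0.941% and 0.889%. Beside rising exonic peaks 3.57% of promoters rose, and beside falling ones 7.75% fell. Whether these shares differ was not tested. In each case where this promoter peak and an exonic peak were both called, the directions were the same. Inside the spans of Ttn and Neb, whose promoter peak read here was not called, 2 of 19 and 1 of 13 promoter peaks were lower. Car3, a carbonic anhydrase abundant in muscle, had an exonic peak at 25.2, 25.2 and 19.7 CPM in WT and 11.5, 9.78 and 9.15 CPM in KO (2.31-fold lower, adjusted p = 1.36e-06) and a promoter at a log2 fold change of -0.88. Ppp1r3a, which ties protein phosphatase 1 to glycogen in muscle, had an exonic peak at 6.38, 9.02 and 7.77 CPM in WT and 3.97, 3.21 and 3.75 CPM in KO (log2 fold change -1.09, adjusted p = 0.00444) beside a promoter at -1.19. The Ppp1r3a exonic call was lost without WT4 or KO5 and with the authors' factors.

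The highest exonic levels were in Sfi1, which encodes a centrin-binding protein of the centrosome. Its upper peak stood at 151, 127 and 228 CPM in WT and at 178, 139 and 145 CPM in KO, with WT8 apart from all others, and did not pass (log2 fold change -0.13, SE 0.17, adjusted p = 0.796). The lower Sfi1 peak stood at 120, 100 and 162 CPM in WT and at 131, 106 and 105 CPM in KO. In both, the sign turned without WT8.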

How the data were processed

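The authors deposited 1 peak table with whole-number counts per peak and library, a normalized signal, the log2 fold change of KO over WT, the raw and adjusted p-values, a score for each peak, and the annotation. The build GRCm38, DESeq2 1.6.3, MACS2, BWA, Trimmomatic, bedtools and deepTools are named in the submitters' processing notes, which give no counting tool, read shift or duplicate handling. Dividing the counts by 1 factor per library gives the authors' signal. No genome was used, and promoter windows and gene spans come from RefSeq tables of GRCm38.p6.

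Counts were tested with edgeR 4.0.16 (glmQLFit, glmQLFTest, two-sided) in R 4.3.3, with TMM factors and filterByExpr (minimum count 10, minimum total 15), on the whole table, with Benjamini-Hochberg adjustment over 73896 peaks and a threshold of 0.05. CPM values are TMM-scaled, and log2 CPM used a prior count of 2. The SE is the log2 fold change divided by the square root of F. The test was also run on simulated data of 73395 peaks, with 40 exonic peaks at each size and the rest unchanged. It called 10% of gains of 1.5 times and 72.5% of gains of 2 times. Of losses to 0.5 and to 0.25 of the level it called 37.5% and 95%, with 7 false calls of 133. Values with 1 number per library were compared by an exact permutation test. The replicate numbers do not pair the groups.

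The gene of an exon came from the annotated transcript (3024 peaks), a RefSeq span (518), or the deposited gene (5), and 3 stayed unresolved. The text names the 12 exonic peaks per direction with the smallest p-values, 1 per gene; up to 3 called peaks per list and direction; the 5 genes with most exonic peaks; the 3 widest, 3 farthest and 3 highest peaks; and Myh1. Some items that this rule takes in are not reported here. Other genes are named after their values were seen, among them Pde4dip, Plbd2's further peak, Slc41a3, Rictor, Lpin1, Ubr4, Mlxip, Car3, Ppp1r3a and the start-site peaks. Members and lists were chosen with earlier results of these data known. Alternatives were median-ratio factors, the authors' factors, total counts, DESeq2 1.42.0, limma-voom (limma 3.58.1), no filter on low counts, a mean count of at least 50, and each library left out.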

Additional observations from a re-analysis of the deposited data

How the results depend on the processing

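The number of higher exonic peaks was 63 to 165 and of lower ones 81 to 194 when 1 library was left out, and with the authors' factors the lower ones numbered 31. The median log2 fold change of exonic peaks was -0.088 to 0.0099 with 1 library left out and 0.14 with the authors' factors, and -0.06 with all libraries and TMM. The share of reads in exonic peaks differed between KO and WT by -0.111 to 0.122 percentage points with 1 library left out, and the sign turned without WT4 (0.122) and KO7 (0.102). With all libraries this difference was -0.013 percentage points. Taken as a share of reads in peaks on chromosomes 1 to 19 alone, it was -0.110 (exact permutation p = 0.6). The exonic minus intronic difference was -0.016 to 0.0097, with the sign turned without WT4 (0.00968) and KO7 (0.00768). The exonic minus promoter difference was -0.16 to -0.01 with 1 library left out. The Zfpm2 peak ran from -0.20 to 0.60 with 1 library left out and turned to -0.026 without WT4 and -0.20 without KO4. The Sfi1 peaks ran from -0.28 to 0.098 and from -0.27 to 0.20 and turned to 0.070 and 0.11 with the authors' factors and to 0.098 and 0.20 without WT8. The cause was not tested. Of 70 called peaks among the 78 named, 38 lost the call under at least 1 alternative, 33 with the authors' factors, 24 without KO5 and 22 without WT4. With total counts 2 lost the call, and with median-ratio factors 0 did. The authors' factors lie close to 1 in all libraries although depth differed, so losses with them are not those of a like scaling. No paired analysis was possible because the groups share only replicate number 4. Leaving out a library leaves its group with 2 samples. Differences of 1.5 times were mostly missed in the simulation, so a peak that did not pass may still differ. The simulation changed exonic peaks only, without those at the lowest levels, and far fewer peaks than the 5177 called in the data. Its recovery rates are therefore not those of the real fit.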

Other observations

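Among exonic peaks on the X chromosome, which stand outside the set above, the called ones were all lower. Of 36 tested, 0 were higher and 6 were lower, beside 2.77% and 4.23% of all peaks tested. The median log2 fold change of the 36 was -0.36, and no values with a library left out are given for them. The 6 lay in Arhgef6, Prps1, Phka1, Ocrl, Tro and Sh3kbp1. Phka1, which encodes the muscle subunit of phosphorylase kinase, had a mean of 7.01 ± 3.61 CPM over the WT libraries and of 3.06 ± 1.44 CPM over the KO libraries (SD, n = 3; log2 fold change -1.23, edgeR adjusted p = 0.00186). Over all 1083 tested peaks of the X chromosome, 13 were higher and 90 lower (1.20% and 8.31%), with a median of -0.05. More falls than rises were thus called over the whole chromosome and not in its exonic peaks alone. Reads in X peaks made up 1.05%, 1.02% and 0.932% of all in WT and 0.934%, 0.976% and 1.05% in KO (exact permutation p = 0.8).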
